A study of Caenorhabditis japonica with 3 samples.

Results

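The transcripts described here were present in the first embryonic cells, lower in the middle of embryogenesis and higher again late. They are 21 genes of the 3955 in a table of 3′ end reads of the nematode Caenorhabditis japonica, counted embryo by embryo. Members were chosen by their pooled levels, given as CPM, the reads of a gene per 1000000 reads of all listed genes after summing over the embryos of a window. A member had 1 annotated 3′ end peak, at least 50 CPM in the embryos of 1, 2 and 4 cells, a level between 140 and 290 minutes after the 4-cell stage at least 2.5-fold below both the 1-4 cell level and the level between 300 and 430 minutes, a level at 60-100 minutes under 3 times the 1-4 cell level, and a late level above 0.75 and below 4 times it. Of 3392 genes with 1 peak, 2421 reached 50 CPM at 1-4 cells, 868 of these also fell by the set fold in the middle window, and 70 of those stood as far below the late window. The bounds on the late level left 21, and the bound on the 60-100 minute level removed none of them.

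The time course holds 46 whole embryos, each cut from a mother, timed from the 4-cell stage at 20 °C and frozen, with no treatment or mutant compared, and with its polyA RNA barcoded, amplified and sequenced by CEL-Seq. Barcoded embryos were pooled in 3 sequencing libraries: an early one with embryos of 1, 2 and 4 cells and of 10 to 130 minutes (n = 16), a middle one of 140 to 290 minutes (n = 16) and a late one of 300 to 430 minutes (n = 14). Each age has 1 embryo in the table, so the spread between embryos includes their difference in age, and the library cannot be told apart from the age range. An embryo had 1719 to 454691 reads over the table's genes (median 61827), and 14 embryos below 15457 reads (0.25 of the median) are called shallow. Extra embryos at 330 and 340 minutes are named in the labels, and the columns used for these ages carry a suffix, so the late slopes and the comparison of the late windows are also given without them.

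An embryo starts with RNA that its mother loaded into the egg. Part of this maternal RNA is degraded as the embryo begins to transcribe its own genome, and a gene whose maternal RNA has gone can be transcribed again later in particular tissues. A late transcript can therefore come from the embryo's own copies, which these counts do not distinguish from stored RNA. CPM is a share of the reads of a whole embryo, so a smaller amount of a transcript, a larger amount of the others, fewer cells that hold it and less of it per cell cannot be told apart. The files give identifiers only, with no gene name, and the role of no member is stated for that reason. Each member had reads in the 1-cell embryo, from 9 to 104, a stage at which transcripts are taken as maternal. That embryo holds 60.3% of the reads of the 1-4 cell window, which chose the members. CJA33712 and CJA03664 had 0 reads in the 2-cell embryo.

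Summed over the 21 members, the course was visible in individual embryos. The sum stood at 3056, 3057 and 2579 CPM in the embryos of 1, 2 and 4 cells, at 2501 CPM at 20 minutes, 2289 at 30 and 1327 at 50 minutes. From 60 to 100 minutes the 5 embryos lay between 843 and 1320 CPM, all below each of the embryos of 1-4 cells. The 3 embryos at 110-130 minutes, all shallow, had 2116, 748 and 2553 CPM from 4, 11 and 19 reads. In the middle library the 10 embryos up to 260 minutes that were not shallow lay between 432 and 787 CPM, and those at 280 and 290 minutes reached 1301 and 1225 CPM. Late embryos that were not shallow ran from 1951 CPM at 380 minutes to 6120 CPM at 430 minutes, with a median of 3300 (n = 9), or 3906 without the embryos at 330 and 340 minutes (n = 7). Among embryos that were not shallow, much of the decline lay inside the early library, and the sum was already higher in the last embryos of the middle library than at 140 to 260 minutes. The middle and late levels of the members are those that chose them, so these values are a description.

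**Figure D1:**
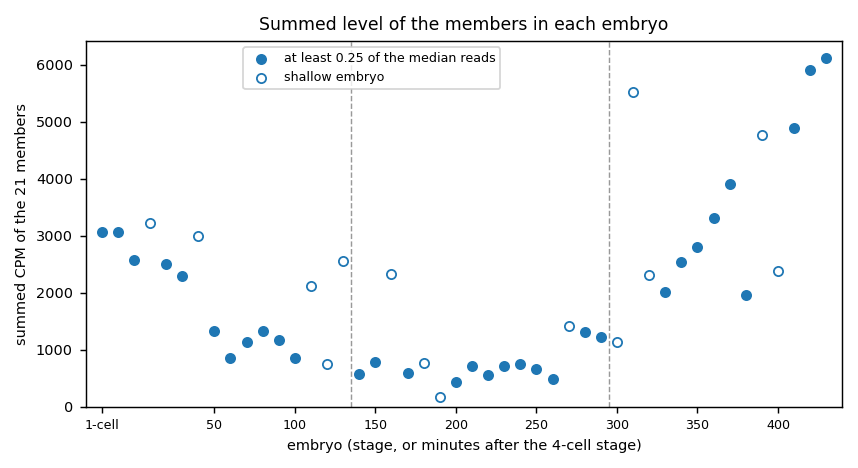
Summed CPM of the 21 members (vertical axis) in each of 46 embryos ordered by age (horizontal axis). Filled points are embryos with at least 0.25 of the median reads, open points are shallow embryos, and dashed lines mark the borders between libraries. Embryos at 60-100 minutes lie between 843 and 1320 CPM, and the embryo at 430 minutes is at 6120 CPM.

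The members differed in how far they fell and how far they came back. Over the 21, the pooled level at 1-4 cells had a median of 112 CPM (57.6 to 390), the middle level 32.8 CPM (1.59 to 88.4) and the late level 163 CPM (50.5 to 412). The median at 1-4 cells was higher, 166 CPM, in the 2421 genes with 1 peak and at least 50 CPM there. The deepest dips belonged to CJA08004, whose middle level was 36.3-fold below its 1-4 cell level, and to CJA07429 and CJA13328, each 21.2-fold below. Their middle levels rested on 3, 6 and 6 reads and their 1-4 cell levels on 18, 21 and 21, so these ratios are imprecise. At the other end, CJA08445 and CJA03664 were 2.51-fold and 2.59-fold below, next to the limit. Just outside it were CJA00476 at 2.4995-fold and CJA02888 at 2.42-fold. For the ratio of late to middle level, CJA13253 at 2.65-fold and CJA03664 at 3.10-fold were the lowest inside, and CJA06465 at 2.38-fold and CJA16852 at 2.34-fold the highest outside.

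Relative to the first embryos, the late level also varied. CJA08004 and CJA33712 ended at 2.72 and 2.34 times their 1-4 cell levels, whereas CJA13328 and CJA16505 returned to 0.752 and 0.763 times theirs. The largest jump from middle to late was that of CJA08004, 98.5-fold, followed by CJA07429 with 26.4-fold, from middle levels of only 3 and 6 reads. The median over the members was a late level 1.20 times the level at 1-4 cells. Among the 2421 genes with 1 peak and at least 50 CPM at 1-4 cells, that median was 0.458. The rule held this ratio above 0.75 and below 4 in the members, so the gap between the medians is set by the choice.

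Single embryos overlapped more than the pooled levels. With shallow embryos set aside, every middle embryo lay below every embryo of 1-4 cells in 7 of 21 members, against 16.2% of all genes, and every middle embryo lay below every late one in 1 member, CJA14450, against 1.67% of all genes. These counts rest on the windows that chose the members. In CJA14450 the embryos of 1, 2 and 4 cells had 133, 250 and 125 CPM, the 12 middle embryos that were not shallow ranged from 21.1 to 62.8 CPM with a median of 46.98, and the 9 late ones from 111 to 564 CPM with a median of 299.9. In these embryos its middle values lay below all the others. The late values were the most spread, and their range included the values at 1-4 cells.

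The members with the most reads show different courses into the dip. CJA11149, with 1040 reads over all embryos, had 239, 277 and 291 CPM at 1, 2 and 4 cells and 81.6, 124, 226, 66.0 and 52.3 CPM from 60 to 100 minutes. Its values at 60-100 minutes were all below those of the first 3 embryos. Late embryos that were not shallow had 194 to 759 CPM with a median of 415, and middle ones 0 to 256 CPM with a median of 80.2. CJA10079, with 994 reads, was the only member whose pooled level at 60-100 minutes was above that at 1-4 cells. It had 223, 264 and 125 CPM at 1, 2 and 4 cells and 218, 458, 377, 594 and 288 CPM from 60 to 100 minutes, so that its level at 60-100 minutes was 1.87 times that at 1-4 cells, the highest ratio among the members. Its fall lay between 100 minutes and the middle window, where embryos that were not shallow had 0 to 149 CPM with a median of 63.3, and therefore between the last deep early embryo and the next library. Late embryos that were not shallow stood at 84.3 to 377 CPM with a median of 195.

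CJA16379, named after its values were seen, had an early fall and a wide spread between embryos. At 1, 2 and 4 cells it had 552, 52.7 and 291 CPM, and from 10 to 50 minutes 281, 200.04, 275, 249 and 22.2 CPM. From 60 to 100 minutes it stayed between 23.3 and 78.5 CPM, so the drop appeared between the embryos at 40 and 50 minutes, although the 2-cell embryo was already as low and the one at 40 minutes, which is shallow, had 3 reads. The 9 late embryos that were not shallow ranged from 5.81 CPM at 330 minutes to 547 CPM at 370 minutes, and 43.4 CPM at 420 minutes stood beside 537 CPM at 430 minutes. The late level of this gene was thus not steady from embryo to embryo.

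**Figure D2:**
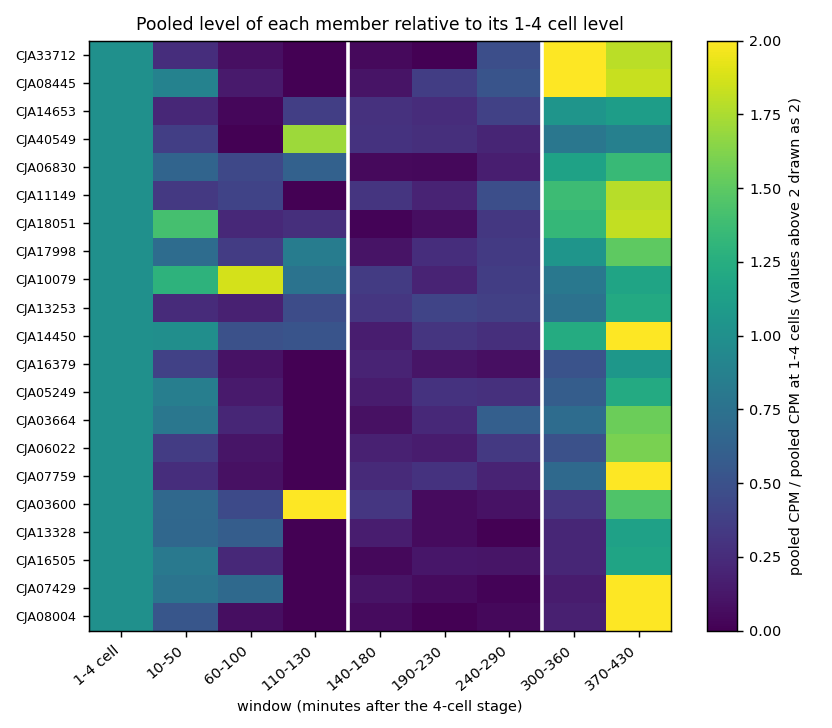
Pooled CPM of each member (rows) in 9 age windows (columns), divided by its pooled CPM at 1-4 cells and drawn by colour, with values above 2 drawn as 2. Rows are ordered by the ratio of the 370-430 to the 300-360 minute level, lowest at the top, white lines mark library borders, and the 110-130 minute column rests on 24042 reads. CJA10079 is above its 1-4 cell level at 60-100 minutes, and CJA08004 and CJA07429, at the bottom, rise only in the last column.

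Whether the fall began inside the early library was tested on embryos from 10 to 100 minutes, a comparison added after the data were seen. Those at 10-50 minutes were not used to choose members, and the criterion on 60-100 minutes had removed no gene. From 10-50 to 60-100 minutes, 4 of 21 members fell and 0 rose (edgeR quasi-likelihood test with Benjamini-Hochberg adjustment over 3955 genes, adjusted p under 0.05). Over all genes 6.07% fell and 3.82% rose. Without adjustment, 9 members fell and 0 rose at p under 0.05, beside 13.3% and 10.3% of all genes. The estimate was downward in 18 members and upward in 3, and downward in 44.7% of all genes, with a median log2 change of -1.27 over the members and 0.05 over all genes. The members lay among genes that share their early course: of the 740 genes that meet the same early and middle criteria but stay at or below the 1-4 cell level divided by 2.5 late, 20.3% fell over the same interval, close to the 19.0% of the members. Scaling by library size alone gave 7 members down, and DESeq2 gave 9. With these scalings the median of all genes was -0.12 and -0.59, and the calls over all genes went from 151 higher and 240 lower to 156 and 460 and to 66 and 597.

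The 4 genes that fell were CJA40549, CJA05249, CJA18051 and CJA08445. CJA40549 had 561, 100.02, 39.3, 332 and 74.1 CPM from 10 to 50 minutes and 0 reads in all 5 embryos from 60 to 100 minutes, a window of 481185 reads. Counting that window as 3 reads puts its pooled level at least 11.58-fold lower (edgeR adjusted p = 3.52e-04), and the gene had reads again at 130 minutes, 8 of the 7443 in that embryo. CJA18051 went from 561, 150.03, 343, 249 and 93.9 CPM to 0, 54.3, 37.7, 0 and 17.4 CPM, and no embryo at 60-100 minutes reached the lowest one at 10-50 minutes. Its log2 change was -2.76 ± 0.76 (SE, edgeR adjusted p = 0.011). CJA05249 changed by -2.57 ± 0.68 (SE, edgeR adjusted p = 0.0076) and CJA08445 by -2.18 ± 0.72 (SE, edgeR adjusted p = 0.040) on the same scale. Leaving out the embryo at 30 minutes left 2 of the 4 calls, those of CJA40549 and CJA05249. Without the shallow embryos the call of CJA18051 was lost (edgeR adjusted p = 0.054). In the shallow embryos at 10 and 40 minutes, CJA40549 had 8 and 4 reads and CJA18051 had 8 and 3. The call of CJA08445 was lost in 7 of 16 alternatives, with adjusted p-values from 0.0045 to 0.32.

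The embryos at 110-130 minutes, also outside the rule, held too few reads to follow single members. These 3 embryos had 1890, 14709 and 7443 reads, or 24042 in all, and 12 members had 0 reads there, which allows a pooled level of up to 125 CPM for each. For only CJA16379 was the level at 10-50 minutes, 152 CPM, above that limit, so its level was at least 1.22-fold lower. Between 10-50 and 110-130 minutes 0 members rose and 0 fell in the edgeR quasi-likelihood test (background 1.21% of all genes higher and 1.49% lower), with 1 higher and 5 lower at an unadjusted p under 0.05 (4.602% and 12.6% of all genes). DESeq2 also called 0, and limma-trend called 7 lower, where it called 17.4% of all genes lower. Over all genes the split of calls turned with the scaling, from 48 higher and 59 lower to 77 and 55 with library size alone, 47 and 136 with TMMwsp, 41 and 32 with DESeq2 and 38 and 689 with limma-trend. A slope through these 8 embryos, a comparison added after the data were seen, fell in 4 members (19.0%) and rose in 0, where 3.16% of 3730 genes fell and 2.33% rose. Of the 740 genes that share the early and middle criteria but stay low late, 10.8% fell and 0 rose. The 4 members were CJA16379, CJA16505, CJA06022 and CJA07759, with slopes of -0.74 ± 0.21, -0.74 ± 0.24, -0.67 ± 0.21 and -0.95 ± 0.31 per 10 minutes on the log2 scale (SE) and edgeR adjusted p-values between 0.014 and 0.039. All 4 are among the members with 0 reads at 110-130 minutes. In the embryo at 50 minutes they had 22.2, 14.8, 39.5 and 4.94 CPM, each the lowest among embryos at 10-50 minutes that were not shallow. This slope was not fitted with another tool or with an embryo left out. CJA03600, named after its values were seen, went the other way in its values, with 2, 3 and 9 reads in the embryos at 110, 120 and 130 minutes, or 582 CPM pooled, against 160 CPM at 10-50 minutes (edgeR adjusted p = 0.25).

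Within the middle window the lowest pooled level fell at 140-180 minutes in 8 members, at 190-230 minutes in 8 and at 240-290 minutes in 5. Of the 2421 genes with 1 peak and at least 50 CPM at 1-4 cells, 42.7%, 21.2% and 36.1% had their lowest level there. A slope of the log2 level on age, fitted within the middle library, does not contain a constant difference between libraries. It uses the embryos whose pooled level chose the members, and that level weights embryos by their reads (mean age 215 minutes, weighted by reads 229 minutes), so the slope is not independent of the choice. The members' counts, and the middle slopes and p-values of single members given below, are therefore a description. By this slope 3 of 21 members rose and 1 fell (edgeR quasi-likelihood test, adjusted p under 0.05), beside 9.13% and 3.49% of all genes. The slope was positive in 16 of 21 members and in 59.8% of all genes, and its median was 0.08 per 10 minutes against 0.02 over all genes.

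CJA33712, CJA18051 and CJA03664 rose before the middle library ended. CJA33712 had 0 reads in the window at 190-230 minutes and 25 reads, or 112 CPM, in the embryo at 280 minutes, with a slope of 0.57 ± 0.11 (SE, edgeR adjusted p = 1.08e-04). DESeq2 did not call this slope (adjusted p = 0.22), nor did limma-trend (adjusted p = 0.29). CJA18051 had 48.5, 0, 6.598, 235, 80.8 and 251 CPM from 240 to 290 minutes, with the highest values in the last 3 embryos, and a slope of 0.44 ± 0.09 (SE, edgeR adjusted p = 1.80e-04). CJA03664 had a slope of 0.27 ± 0.07 (SE, edgeR adjusted p = 0.0058). CJA13328 was the member that fell: it had 0 reads in all 6 embryos from 240 to 290 minutes, among 880861 reads, which allows a pooled level of up to 3.41 CPM, and its slope was -0.33 ± 0.11 (SE, edgeR adjusted p = 0.030). It had only 6 reads in the whole middle library, 1 of them in the shallow embryo at 160 minutes. This call was lost in 4 of 6 alternatives, among them without the shallow embryos (adjusted p = 0.083) and with DESeq2 (adjusted p = 0.061).

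Of the 21 members, 14 did not pass the test of a slope over the late embryos. The high late level required of members weights embryos by their reads (mean age 365 minutes, weighted by reads 374 minutes), so it favours genes that rise late. The counts of members, and the late slopes and p-values of single members given below, are therefore a description. Over the 14 embryos, 7 of 21 members rose and 0 fell (edgeR quasi-likelihood test, adjusted p under 0.05), where 6.65% of all genes rose and 1.67% fell. Without adjustment 12 members rose and 0 fell at p under 0.05, beside 13.6% and 5.44% of all genes. The pooled level at 370-430 minutes was above that at 300-360 minutes in 19 of 21 members, with a median ratio of 2.04, whereas it was above in 41.5% of the 2421 genes with at least 50 CPM at 1-4 cells, with a median ratio of 0.908. Both windows belong to the late level that chose the members, so this contrast is partly set by the rule. Without the embryos at 330 and 340 minutes, which hold most reads of the window at 300-360 minutes, it was above in 16 of 21 members (median ratio 1.43) and in 44.0% of the 2421 genes (median ratio 0.919). The balance over all genes turned with the scaling, from 263 rising and 66 falling to 197 and 184 with library size alone and 97 and 112 with DESeq2. The members' count remained at 7 rising and 0 falling with library size alone and was 6 and 0 with DESeq2. Leaving out the embryos at 330 and 340 minutes gave 4 rising and 0 falling.

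CJA08004 and CJA07429 rose most steeply, and both did so at the end. CJA08004 had 7 reads among 684382 in the window at 300-360 minutes, 2 reads at 370 and 1 read at 380 minutes, and then 483, 976 and 476 CPM at 410, 420 and 430 minutes from 49, 45 and 149 reads. Its slope was 0.73 ± 0.09 per 10 minutes on the log2 scale (SE, n = 14 embryos, edgeR adjusted p = 3.27e-09). CJA07429 had 45.1 and 9.25 CPM at 370 and 380 minutes and 187, 325 and 243 CPM at 410, 420 and 430 minutes, and its slope was 0.59 ± 0.08 (SE, n = 14 embryos, edgeR adjusted p = 1.33e-08). In both genes the last 3 embryos lay above every other embryo that was not shallow. The shallow embryo at 390 minutes had 1 read of each.

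The other 5 rises were less steep, with slopes from 0.19 to 0.36 and edgeR adjusted p-values from 6.01e-04 to 0.024. These genes are named here after their values were seen. CJA03600 had 63.9, 60.2, 99.955 and 133 CPM at 330, 340, 350 and 360 minutes and 276, 369 and 633 CPM at 410, 420 and 430 minutes. CJA16505 went from 11.6 and 15.1 CPM at 330 and 340 minutes to 138, 65.1 and 169 CPM in the last 3 embryos, and CJA07759 from 34.9 and 99.3 CPM to 591, 629 and 384 CPM. In these 3 genes the last 3 embryos were above those at 330 and 340 minutes. CJA14450 and CJA03664, with slopes of 0.19 ± 0.05 and 0.23 ± 0.07 (SE), were the shallowest of the 7 rises. CJA07759, CJA14450 and CJA03664 lost the call without the embryos at 330 and 340 minutes (adjusted p = 0.068, 0.086 and 0.059). Over all alternatives the call was lost in 2 of 7 for CJA07759, 2 of 8 for CJA14450 and 4 of 7 for CJA03664.

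Some members did not rise further within the late library. CJA33712 had 110, 343, 0, 157 and 175 CPM from 330 to 370 minutes and 108, 195 and 99.1 CPM from 410 to 430 minutes, and its late slope was -0.01 ± 0.07 (SE, edgeR adjusted p = 0.98). CJA08445 and CJA33712 were the only 2 members with a lower pooled level at 370-430 than at 300-360 minutes, at 0.850 and 0.583 of it. The slopes of the middle and the late library differed for 4 of 21 members in the same fit, a comparison added after the data were seen, 3 with the steeper rise late (background 1.54%) and 1 with the steeper rise in the middle (background 3.01%). Both slopes use the embryos whose pooled levels chose the members. The difference is thus not independent of the choice, and its counts and p-values in members are a description. CJA07429, CJA13328 and CJA03600 were steeper late, by 0.75 ± 0.14, 0.59 ± 0.14 and 0.39 ± 0.10 per 10 minutes on the log2 scale (SE). CJA33712 was steeper in the middle, with a difference of -0.58 ± 0.14 (SE), and the edgeR adjusted p-values of the 4 lay between 2.90e-04 and 0.011. Without the embryos at 330 and 340 minutes the 4 differences had adjusted p-values from 0.0015 to 0.042. The difference of CJA33712 was lost with DESeq2 (-0.22, adjusted p = 0.55) and turned with limma-trend (0.036, adjusted p = 0.92), and that of CJA03600 was lost with both (adjusted p = 0.061 and 0.15). That of CJA13328 was lost with limma-trend alone (adjusted p = 0.061).

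**Figure D3:**
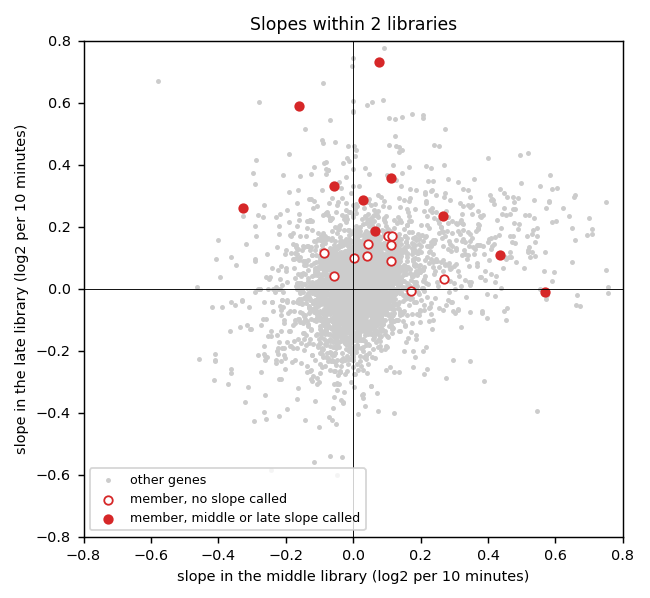
Slope of the log2 level within the middle library (horizontal axis) against that within the late library (vertical axis), both per 10 minutes, for members (red) and other genes (grey). Filled red points have at least 1 slope at an adjusted p under 0.05, and 10 other genes lie outside the axes. The members lie mostly above the horizontal line, with 19 of 21 late slopes positive, against 57.7% of all genes. The late level that chose the members favours genes that rise late.

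**Figure D4:**
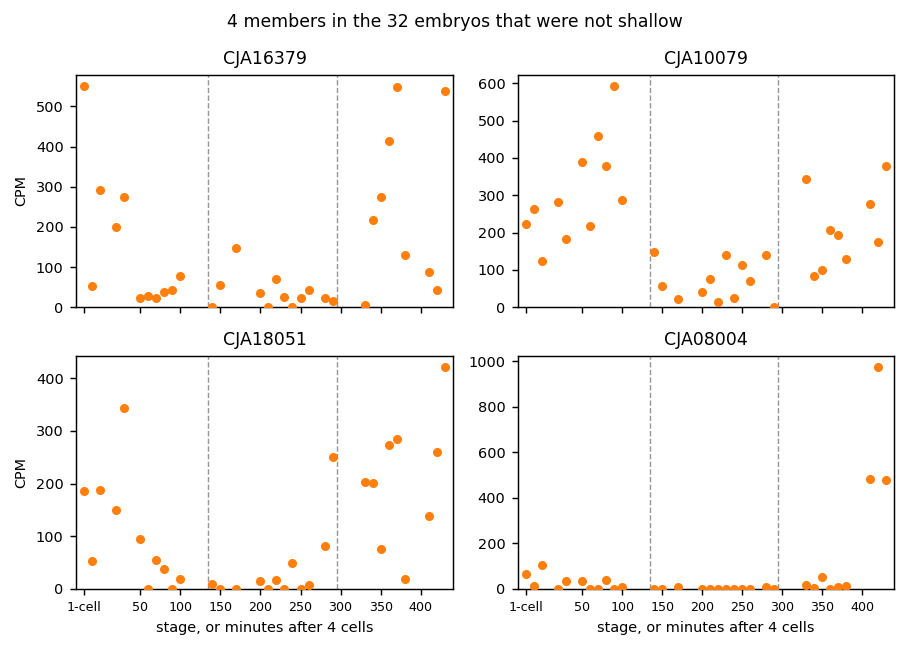
CPM of 4 members (vertical axes) in the 32 embryos that were not shallow, ordered by age (horizontal axis), with dashed lines at the library borders. CJA16379 falls by 50 minutes, CJA10079 stays high to 100 minutes, CJA18051 is at 251 CPM at 290 minutes, and CJA08004 rises at 410 minutes.

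The pooled level at 60-100 minutes was below that at 1-4 cells in 20 of 21 members, the exception being CJA10079, and at or below it divided by 2.5 in 14. Of the 2421 genes, 58.9% and 28.3% did so, and of the 740 genes that stay low late, 79.1% and 47.8%. Every embryo at 60-100 minutes was below every embryo of 1-4 cells in 8 members, against 15.6% of all genes. In 10 members (47.6%) the level at 60-100 minutes was lower than in the middle window, near the 41.4% of the 2421 genes. The lowest ratios to the 1-4 cell level were those of CJA40549, listed at 0 reads, and of CJA14653, with 0.037. CJA14653 had 106, 184 and 20.8 CPM at 1, 2 and 4 cells and 0, 0, 0, 21.996 and 8.72 CPM from 60 to 100 minutes, with 12.3 to 94.2 CPM in the middle embryos that were not shallow. Since the 1-4 cell level was a criterion, these ratios are not tested.

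The single peaks of the members had a median location of 4837 (795 to 7661), against 2463 for the 2421 genes with 1 peak and at least 50 CPM at 1-4 cells (12 to 22550). The origin and direction of these location numbers are not stated, so a difference in location cannot be read as a difference in transcript length. Between 58.3% and 98.3% of a member's reads lay in its peak, with a median of 92.6%. The members had 167 to 1040 reads over all embryos, so that a level of 57.6 CPM at 1-4 cells, the lowest among them, rested on 18 reads.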

How the data were processed

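Per the labels' protocols, single-embryo polyA RNA was amplified and sequenced by CEL-Seq. Per 3′ end peak and per gene, the authors deposited raw counts of reads, used here unchanged. Bowtie2 2.1.0, HTSeq 0.5.4p3 and CASAVA 1.8 are listed, without roles, in the submitters' processing notes. Genome build, annotation and peak caller: not given in the sources used here. Embryo ages came from the deposited sheet of embryos. Each listed peak had at least 98 reads, so totals are not full sequencing depth, and without molecular identifiers counting limits cover counting error only. A level of 0 is bounded by 3 reads over a window.

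Tests ran on all 3955 gene totals with edgeR 4.0.16 (R 4.3.3), TMM scaling, Benjamini-Hochberg adjustment and a two-sided threshold of 0.05. The first fit used 9 age windows, and the other fitted an intercept and a slope within every library. Printed CPM values are not TMM-scaled. The standard errors are derived from the F statistics. limma-trend 3.58.1 used a prior count of 2, and DESeq2 1.42.0 its own size factors. The scripts were checked on simulated counts, where false calls were more frequent than the threshold allows for the late slope and for 110-130 minutes. Embryos are separate animals. Members, lists and tests were chosen with earlier results of these data known. By the naming rule, each test names at most 2 members per direction by log2 change, and descriptions name the extremes of each ratio. Further names are said to be chosen after their values were seen, or complete a count of 5 or fewer. No gene list or marker could be matched, since identifiers carry no names.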

Additional observations from a re-analysis of the deposited data

Results flagged for a closer look

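In 42 groups of 5 embryos (21 members at 10-50 and at 60-100 minutes), 6 had a highest embryo far from the others. The cutoff flags about 1 in 20 groups of normally distributed values. That rate does not hold for counts this low in embryos of unequal depth, so the 6 are not read as an excess. At 40 minutes, in a shallow embryo, CJA08445 had 166 CPM from 2 reads (next 91.4) and CJA05249 had 498 CPM from 6 reads (next 183). At 80 minutes CJA07759 had 75.4 CPM from 2 reads (next 17.4) and CJA08004 had 37.7 CPM from 1 read (next 8.72). CJA33712 had 36.7 CPM from 14 reads at 30 minutes (next 7.41) and 11.6 CPM from 3 reads at 70 minutes, where the others had 0. The slopes of the late and the middle library differed, in a test of the difference, for CJA07429 by 0.75, CJA13328 by 0.59, CJA03600 by 0.39 and CJA33712 by -0.58 on the log2 scale per 10 minutes, late minus middle. The embryos of these 2 libraries also chose the members, so the differences are a description. With limma-trend the difference of CJA33712 was 0.036.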

How the results depend on the processing

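The number of members was 40 with the mean of the embryos' own CPM (16 of the 21 among them), 33 with TMM effective library sizes (17 of the 21) and 40 with a fold of 2. It was 22 without shallow embryos (20 of the 21), 31 without the embryos at 330 and 340 minutes, 17 with a fold of 3, and 19 to 24 when each embryo of 1-4 cells or 60-100 minutes was left out, with 13 of the 21 kept without the 1-cell embryo, which holds 60.3% of the reads of its window. Of the 21, 6 were members under all 14 alternatives: CJA07429, CJA07759, CJA10079, CJA14450, CJA17998 and CJA18051. The summed level with TMM effective sizes was 1317 CPM at 60-100 and 6762 CPM at 370-430 minutes, against 1060 and 4602. TMM factors were 1.01 to 2.92 in the 14 shallow embryos and 0.596 to 1.08 in the others. From 10-50 to 60-100 minutes, members down were 7 with library size alone, 9 with DESeq2 and 2 to 5 leaving out each embryo, and all genes called were 391, 616 with library size alone, 663 with DESeq2, 166 with limma-trend and 270 to 440 leaving out each embryo. At 110-130 against 10-50 minutes, members down were 7 with limma-trend and 4 by the slope over 8 embryos, and all genes called were 107, 183 with TMMwsp, 727 with limma-trend, 205 by that slope and 20 to 110 leaving out each embryo, lowest without the embryos at 130 (20) and 120 minutes (33). For the middle slope, members up were 1 with filterByExpr, which kept 6 members, and 1 comparing 240-290 with 140-180 minutes. Members down were 0 with DESeq2, limma-trend, filterByExpr, without shallow embryos and as windows. All genes called were 499, 270 with limma-trend and 293 with filterByExpr. For the late slope, members up were 1 with filterByExpr, 4 without the embryos at 330 and 340 minutes and 4 comparing 370-430 with 300-360 minutes. All genes called were 329, and 209, 121, 125 and 164 with DESeq2, filterByExpr, without those embryos and as windows. For the late minus the middle slope, members positive were 0 with filterByExpr, members negative were 2 with library size alone and 0 with DESeq2 and limma-trend, and all genes called were 180, 314 with library size alone and 119 with filterByExpr. The cause was not tested, except that filterByExpr leaves fewer genes. The direction of a called member reversed in 1 case, the slope difference of CJA33712 with limma-trend (0.036). Precision is limited by reads: 14 shallow embryos, and 24042 reads in all at 110-130 minutes.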
